A study of Mus musculus with 8 samples.

Results

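The 10 heat shock genes *Hspa1a*, *Hspa1b*, *Hsph1*, *Dnajb1*, *Hsp90aa1*, *Hsp90ab1*, *Hspa8*, *Hspd1*, *Hspe1* and *Hsf1* were described in myeloid cells of lupus-prone sanroque mice. They were taken by symbol from a table of 54188 genes, and each symbol matched 1 gene. The table holds RNA-seq read counts of CD11b+Gr-1hi cells, labelled G-MDSC, and CD11b+Gr-1lo cells, labelled M-MDSC, sorted by FACS from spleen (SP) and bone marrow (BM). All 8 libraries came from sanroque mice of the C57BL/6 background at 20 weeks of age, which are homozygous for the san allele of Roquin and described as female. WT cells were not analysed here, so every group carried the mutation. Libraries 5 and 6 are SP Gr-1hi, 7 and 8 SP Gr-1lo, 9 and 10 BM Gr-1hi, and 11 and 12 BM Gr-1lo. The study describes the 2 libraries of a group as independent biological replicates, and no label ties libraries to a mouse. It calls the BM cells autologous, so SP and BM libraries may share mice. Library 5 is an exception, since its sex-linked transcripts, given below, differed from those of every BM library.

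Heat shock proteins are chaperones that bind unfolded proteins and help them to fold, to assemble or to be degraded. Most cells make some of them at all times, such as HSC70 (*Hspa8*), HSP90-beta (*Hsp90ab1*) and the mitochondrial pair HSP60 and HSP10 (*Hspd1*, *Hspe1*). Others, above all the inducible HSP70 genes *Hspa1a* and *Hspa1b*, are switched on within minutes when heat or another stress frees the transcription factor HSF1, which then binds heat shock elements in their promoters. Tissue dissociation and cell sorting can also raise these genes, so the libraries of a group are given singly.

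Values are CPM, read counts relative to the total of the library, after TMM scaling. Comparisons used the quasi-likelihood F test of edgeR, with Benjamini-Hochberg adjusted p values for the 17650 genes left by the filter on low counts, and a gene passed at an adjusted p of at most 0.05. Log2 values are given ± SE. All 10 heat shock genes passed the filter. Depth was 33453580 to 68316154 counts per library, and the lowest count of any of the 10 genes was 12. *Ly6g*, whose product antibodies to Gr-1 recognise, had a log2 fold change (FC) between Gr-1hi and Gr-1lo libraries of 7.46 in BM and 5.87 in SP. Libraries 5 and 7 stood apart. *Xist*, which is transcribed from the inactive X chromosome, reached 12032 counts in library 5 and 9898 in library 7, against 5 or fewer elsewhere. *Ddx3y*, a gene of the Y chromosome, had 0 counts in library 5 and 33.7 to 82.6 CPM in the other 7 libraries. The mice are described as female, which library 5 alone matched. Library 7 held both transcripts, and the other libraries held *Ddx3y* with almost no *Xist*. High *Xist* occurred in SP libraries only. Comparisons of SP with BM are therefore given with and without libraries 5 and 7. Leaving them out keeps a lone library in each SP group, so the spread in that fit comes from the BM pairs alone. It also keeps only libraries that do not match the stated sex.

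*Hspa1a* (ENSMUSG00000091971, chromosome 17 of GRCm38, 34969190 to 34972156) and *Hspa1b* (ENSMUSG00000090877, chromosome 17, 34956436 to 34959238), which encode nearly the same inducible HSP70, were higher in SP than in BM libraries of both subsets. *Hsph1* (ENSMUSG00000029657, chromosome 5, 149614287 to 149636376), which encodes HSP110, an exchange factor of HSP70, and *Hspe1* (ENSMUSG00000073676, chromosome 1, 55088132 to 55091307), which encodes HSP10, were higher in SP in Gr-1hi libraries, with adjusted p values of 0.799 and 0.636 in Gr-1lo by edgeR's quasi-likelihood test. Their start regions are shown because these 4 genes had the largest differences between SP and BM. They are 300-base windows of RefSeq on GRCm38.p6, each from 250 bases before a start site to 50 after it and written 5' to 3' on the strand of the gene. Capitals mark matches to a heat shock element, searched as GAANNTTC or TTCNNGAA (2 units) and as the runs in which these overlap by 1 unit (3 units), on both strands.
*Hspa1a*, chr17:34972107-34972406, minus strand: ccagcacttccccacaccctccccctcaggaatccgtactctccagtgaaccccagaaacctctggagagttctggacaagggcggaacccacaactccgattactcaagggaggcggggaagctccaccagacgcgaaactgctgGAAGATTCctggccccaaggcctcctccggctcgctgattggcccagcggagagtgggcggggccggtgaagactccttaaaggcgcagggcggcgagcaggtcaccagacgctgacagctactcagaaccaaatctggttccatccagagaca
*Hspa1b*, chr17:34959189-34959488, minus strand: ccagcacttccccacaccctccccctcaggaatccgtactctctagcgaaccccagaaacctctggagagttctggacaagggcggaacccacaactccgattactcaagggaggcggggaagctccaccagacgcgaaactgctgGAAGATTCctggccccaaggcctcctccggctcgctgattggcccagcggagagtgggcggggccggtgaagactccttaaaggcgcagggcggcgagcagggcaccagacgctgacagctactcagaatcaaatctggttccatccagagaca
*Hspe1*, chr1:55087898-55088197, plus strand: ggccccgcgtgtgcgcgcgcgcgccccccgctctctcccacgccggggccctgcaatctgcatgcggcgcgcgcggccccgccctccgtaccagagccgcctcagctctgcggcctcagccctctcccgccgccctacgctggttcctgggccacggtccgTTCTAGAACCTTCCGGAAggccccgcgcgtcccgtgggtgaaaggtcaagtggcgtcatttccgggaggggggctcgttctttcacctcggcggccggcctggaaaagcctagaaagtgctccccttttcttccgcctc
*Hsph1*, chr5:149636287-149636586, minus strand: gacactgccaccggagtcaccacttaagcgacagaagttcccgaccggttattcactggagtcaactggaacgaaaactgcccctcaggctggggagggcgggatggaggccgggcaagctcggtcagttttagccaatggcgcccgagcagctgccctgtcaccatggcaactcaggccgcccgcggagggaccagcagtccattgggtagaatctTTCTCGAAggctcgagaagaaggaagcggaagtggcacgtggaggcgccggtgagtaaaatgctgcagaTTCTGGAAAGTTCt

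The windows of *Hspa1a* and *Hspa1b* were identical at 296 of 300 bases. Counted from 1 at the 5' end of the window, with the base of *Hspa1a* first, they differed by C44T, T47C, T249G and C276T. Both held the same 2-unit match, GAAGATTC, from -104 to -97 of the start site. The *Hspe1* window held overlapping 3-unit matches, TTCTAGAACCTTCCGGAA, from -89 to -72. The same bases lay from -144 to -127 of the second of 2 start sites of *Hspd1* (ENSMUSG00000025980, chromosome 1, 55077835 to 55088243), which is read on the other strand. *Hspd1* and *Hspe1* overlap by 112 bases. The *Hsph1* window held the 3-unit match TTCTGGAAAGTTC from 37 to 49 after its start and the 2-unit match TTCTCGAA from -33 to -26. Both windows of *Dnajb1* (ENSMUSG00000005483, chromosome 8, 83608193 to 83612653) held no match. Among all 32851 mouse windows, 198 (0.603%) held a 3-unit match and 4946 (15.1%) a 2-unit match. Windows were found for 6 of the 10 genes, so *Hsp90aa1*, *Hsp90ab1*, *Hspa8* and *Hsf1* are named without one. A match is a run of letters and was not tested for binding.

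**Figure D1:**
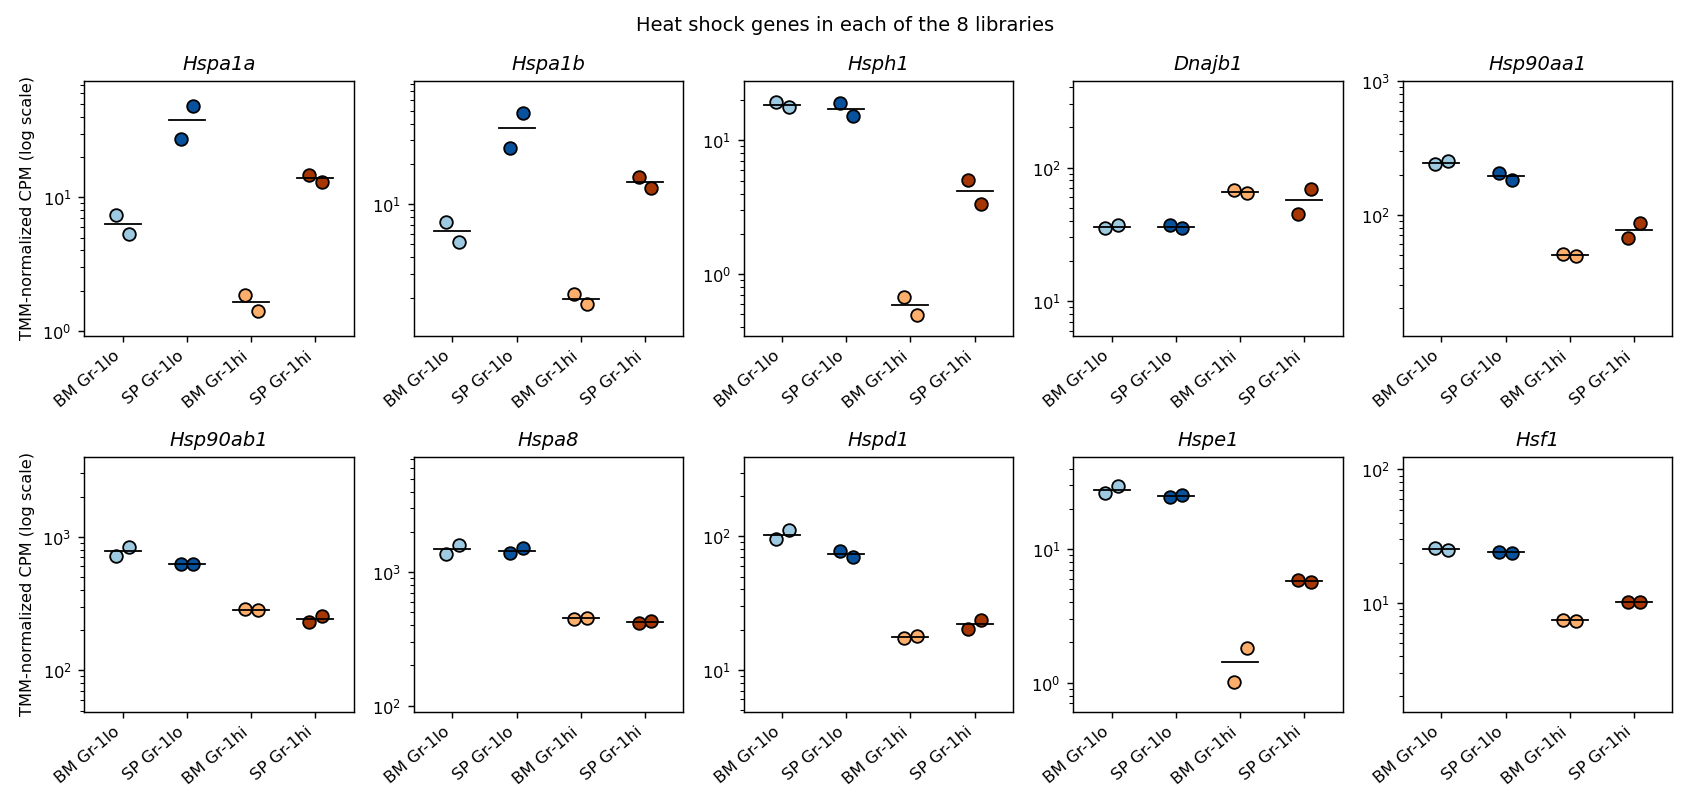
TMM-normalized CPM of the 10 heat shock genes, on log axes of equal span, in the 2 libraries of each group (points) with their mean (line). *Hspa1a* and *Hspa1b* lie higher in SP than in BM within each subset, *Hsph1* and *Hspe1* are lowest in BM Gr-1hi, and *Dnajb1* spans 1.82-fold between its highest and lowest group.

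The inducible HSP70 genes showed the same order of groups. *Hspa1a* was at 27.3 and 48.7 CPM in the SP Gr-1lo libraries 7 and 8, 14.8 and 13 in the SP Gr-1hi libraries 5 and 6, 7.38 and 5.29 in the BM Gr-1lo libraries 11 and 12, and 1.87 and 1.40 in the BM Gr-1hi libraries 9 and 10. *Hspa1b* was at 26.3 and 48.5, 16.1 and 13.2, 7.40 and 5.20, and 2.13 and 1.78 CPM in the same libraries. No 2 groups overlapped in either gene. Here and below, absence of overlap between groups of 2 libraries is a description, and its share over all genes was not computed. The highest library of *Hspa1a* exceeded its lowest 34.7-fold. Library 8 was above library 7 by 1.79-fold for *Hspa1a* and 1.84-fold for *Hspa1b*, the widest spread within a group for these genes.

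In Gr-1hi libraries, *Hspa1a* rose 8.44-fold in SP, a log2 FC of 3.08 ± 0.35 (adjusted p = 0.000695, edgeR's quasi-likelihood test). *Hspa1b* rose 7.48-fold, a log2 FC of 2.90 ± 0.35 (adjusted p = 0.000988) by the same test. In Gr-1lo libraries the log2 FC was 2.59 ± 0.29 (adjusted p = 0.00176) for *Hspa1a* and 2.58 ± 0.30 (adjusted p = 0.0024) for *Hspa1b* by that test. Both genes passed in both subsets under each of the 16 alternatives, with a log2 FC of *Hspa1a* from 2.17 to 3.23 in Gr-1hi and from 2.11 to 2.95 in Gr-1lo. Without libraries 5 and 7 it was 3.0 and 2.94. The difference between the subsets in this comparison of SP with BM did not pass. The interaction log2 difference was 0.49 for *Hspa1a* (adjusted p = 0.496) and 0.33 for *Hspa1b* (adjusted p = 0.669) by the same test. It was -0.28 and -0.41 with limma on quantile-normalized TPM, and for *Hspa1b* -0.05 without library 7 and -0.17 without libraries 5 and 7.

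Reads of the *Hspa1* pair could be counted on the wrong copy. Of the stretches of 101 bases, the read length, along the *Hspa1a* transcript, 46.9% also occur in *Hspa1b* and 56.3% in any other annotated gene. How the authors counted reads with several matches is not given in the sources used here. *Hspa1a* took 44.2% to 50.9% of the counts of the pair in each library, and the exact 95% binomial interval, which covers counting error only, excluded 50% in none of the 8 libraries. The pair together was at 30.9 and 26.2 CPM in SP Gr-1hi, 53.6 and 97.2 in SP Gr-1lo, 4.0 and 3.18 in BM Gr-1hi, and 14.8 and 10.5 in BM Gr-1lo. Counted as 1 feature, the pair had a log2 FC between SP and BM of 2.99 in Gr-1hi (adjusted p = 0.000807) and 2.58 in Gr-1lo (adjusted p = 0.00262) by the quasi-likelihood test.

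HSP70 works with J-domain proteins, which bring it clients, and with exchange factors, which reset it. *Dnajb1*, the J-domain partner that also holds HSF1 in check, was at 45.1 and 69.6 CPM in SP Gr-1hi, 37.3 and 35.0 in SP Gr-1lo, 67.4 and 64.4 in BM Gr-1hi, and 35.2 and 37.1 in BM Gr-1lo. The Gr-1hi libraries were the high ones, and SP and BM overlapped in both subsets. Its log2 FC between SP and BM was -0.20 ± 0.18 (adjusted p = 0.413) in Gr-1hi and 0.00 ± 0.18 (adjusted p = 0.997) in Gr-1lo by the quasi-likelihood test. Library 6 was 1.54-fold above library 5. Without library 6 *Dnajb1* was called lower in SP Gr-1hi (log2 FC -0.62, adjusted p = 0.00211, same test), and without libraries 5 and 7 its log2 FC was 0.10.

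*Hsph1* was at 19.3 and 17.8 CPM in BM Gr-1lo, 19.2 and 15.3 in SP Gr-1lo, 5.03 and 3.35 in SP Gr-1hi, and 0.673 and 0.495 in BM Gr-1hi. The Gr-1lo groups overlapped, and each other pair of groups was apart. Its means spanned 31.8-fold, the widest span of the 10 genes. In Gr-1hi it rose 7.11-fold in SP, a log2 FC of 2.83 ± 0.30 (adjusted p = 0.000421, edgeR's quasi-likelihood test), against -0.11 ± 0.19 (adjusted p = 0.799) in Gr-1lo. The interaction log2 difference of 2.94 ± 0.36 had an adjusted p of 0.00321 by that test. Only 18 and 12 counts stood behind its BM Gr-1hi values. The log2 FC of *Hsph1* was 2.52 in Gr-1hi and -0.29 in Gr-1lo without libraries 5 and 7. With limma on log2(quantile-normalized TPM + 1), the log2 FC in Gr-1hi was 0.89 and the interaction difference 1.05 (adjusted p = 0.0524). The added 1 compresses the FC of a gene at low levels, and its part in these values was not tested. *Hsph1* was at 0.0804 CPM per kb of exon in BM Gr-1hi and 0.577 in SP Gr-1hi.

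The HSP90 genes encode the chaperone that holds kinases and receptors close to their active form. *Hsp90aa1* (ENSMUSG00000021270, chromosome 12, 110690605 to 110702728), the inducible form, was at 240 and 252 CPM in BM Gr-1lo, 206 and 183 in SP Gr-1lo, 66.7 and 86.1 in SP Gr-1hi, and 50.9 and 49.3 in BM Gr-1hi. No groups overlapped. It was 1.53-fold higher in SP Gr-1hi than in BM Gr-1hi (log2 FC 0.61 ± 0.13, adjusted p = 0.0078, quasi-likelihood test), a call that was lost without library 10 (log2 FC 0.48, adjusted p = 0.0649). In Gr-1lo its log2 FC was -0.34 ± 0.12 (adjusted p = 0.177). Without libraries 5 and 7 *Hsp90aa1* had a log2 FC of 0.80 in Gr-1hi and -0.44 in Gr-1lo. The interaction difference was 0.95 ± 0.18 (adjusted p = 0.0118, same test) and was not past the threshold without library 8 (adjusted p = 0.0531).

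*Hsp90ab1* (ENSMUSG00000023944, chromosome 17, 45567775 to 45573271), the constitutive form, was at 714 and 842 CPM in BM Gr-1lo, 631 and 621 in SP Gr-1lo, 288 and 281 in BM Gr-1hi, and 232 and 254 in SP Gr-1hi. SP libraries were the lower ones in both subsets, and neither difference passed. The log2 FC was -0.23 ± 0.10 (adjusted p = 0.112) in Gr-1hi and -0.31 ± 0.10 (adjusted p = 0.131) in Gr-1lo by the quasi-likelihood test. In Gr-1hi it was called lower with RLE scaling (log2 FC -0.30, adjusted p = 0.0417), with DESeq2 (-0.30, adjusted p = 0.0246) and without library 6 (-0.37, adjusted p = 0.0315). Without libraries 5 and 7 the log2 FC was -0.15 in Gr-1hi and -0.34 in Gr-1lo.

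*Hspa8* (ENSMUSG00000015656, chromosome 9, 40800984 to 40810087), the constitutive HSC70, was at 1371 and 1599 CPM in BM Gr-1lo, 1381 and 1517 in SP Gr-1lo, 448 and 456 in BM Gr-1hi, and 413 and 432 in SP Gr-1hi. The groups parted by subset, and the SP Gr-1lo libraries lay within the range of the BM Gr-1lo libraries. Its log2 FC between SP and BM was -0.10 ± 0.10 (adjusted p = 0.495) in Gr-1hi and -0.04 ± 0.10 (adjusted p = 0.885) in Gr-1lo by the quasi-likelihood test, and without libraries 5 and 7 it was -0.05 and 0.02. Other annotated genes share 28.4% of the 101-base stretches of *Hspa8*, 37.8% of those of *Hsp90aa1* and 23.6% of those of *Hspd1*, so their counts could include reads of related sequences. Per kb of exon, *Hspa8* and then *Hsp90ab1* had the highest levels of the 10 genes in all 4 groups. *Hspa1b* and *Hspa1a* ranked 6 and 7 of 10 in both SP groups, with 13.3 and 12.8 CPM per kb in SP Gr-1lo, and 8 to 10 in the BM groups.

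HSP60 and HSP10 form the folding chamber of mitochondria, and their genes lie head to head. *Hspd1* was at 95.1 and 111 CPM in BM Gr-1lo, 77.4 and 70.1 in SP Gr-1lo, 20.3 and 23.6 in SP Gr-1hi, and 17.3 and 17.8 in BM Gr-1hi. *Hspe1* was at 26.1 and 29.5 CPM in BM Gr-1lo, 24.4 and 25.4 in SP Gr-1lo, 5.91 and 5.68 in SP Gr-1hi, and 1.01 and 1.82 in BM Gr-1hi. Neither gene overlapped between groups, and the step from SP Gr-1hi to BM Gr-1hi was 1.25-fold for *Hspd1* and 4.10-fold for *Hspe1*. *Hspe1* rose in SP Gr-1hi with a log2 FC of 2.05 ± 0.22 (adjusted p = 0.000497, edgeR's quasi-likelihood test), and in Gr-1lo its log2 FC was -0.16 ± 0.16 (adjusted p = 0.636). These were 2.03 and -0.14 without libraries 5 and 7. *Hspd1* had a log2 FC of 0.32 ± 0.12 (adjusted p = 0.0672) in Gr-1hi by the same test, and passed with upper-quartile scaling (0.40, adjusted p = 0.0215) and with no filter (0.34, adjusted p = 0.042). Without libraries 5 and 7 its log2 FC was 0.44. In Gr-1lo it fell by 0.49 ± 0.11 on the log2 scale (adjusted p = 0.046). That call was lost without library 7, 8, 9, 10, 11 or 12, without libraries 5 and 7, and with limma on quantile-normalized TPM, with adjusted p values up to 0.363. The interaction difference was 2.21 ± 0.28 (adjusted p = 0.00362) for *Hspe1* and 0.81 ± 0.17 (adjusted p = 0.0157) for *Hspd1*, and the latter was lost without library 8, 9, 10 or 12 (adjusted p up to 0.0704). In BM Gr-1hi, *Hspe1* had 27 and 44 counts, and 10.8% of its 101-base stretches also occur in other genes.

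*Hsf1* (ENSMUSG00000022556, chromosome 15, 76477422 to 76501913), the gene of the heat shock factor itself, was at 26.0 and 24.9 CPM in BM Gr-1lo, 24.1 and 23.7 in SP Gr-1lo, 10.2 and 10.2 in SP Gr-1hi, and 7.44 and 7.35 in BM Gr-1hi. No groups overlapped, and the 2 libraries of a group lay close together. Its log2 FC in Gr-1hi was 0.46 ± 0.11 (adjusted p = 0.0111) by the quasi-likelihood test and in Gr-1lo -0.09 ± 0.09 (adjusted p = 0.639). The call in Gr-1hi was lost in 6 of 16 alternatives, among them without library 5, 9 or 10 and without libraries 5 and 7. The interaction difference of 0.56 ± 0.14 (adjusted p = 0.0335, same test) was lost in 11 of 15 alternatives, including the omission of any 1 library. HSF1 is controlled mainly at the level of the protein, which these counts do not measure.

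**Figure D2:**
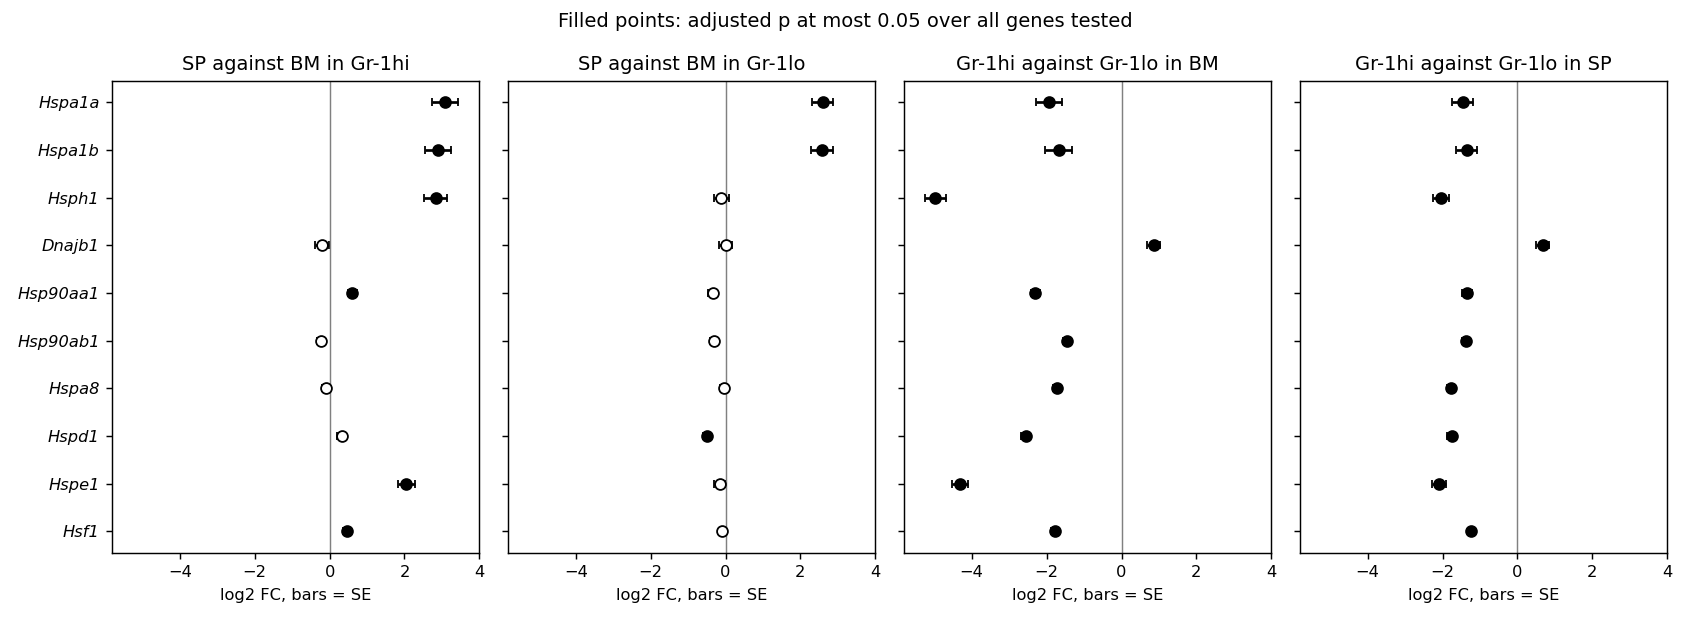
Log2 FC (points) with SE (bars) of the 10 heat shock genes in the 4 comparisons, with genes past an adjusted p of 0.05 filled. *Hspa1a* and *Hspa1b* are filled and above 2 in both comparisons of SP with BM, and all genes but *Dnajb1* are filled and negative in both comparisons of Gr-1hi with Gr-1lo.

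Between SP and BM Gr-1hi libraries, 6 of the 10 genes were higher and 0 lower at an adjusted p of at most 0.05 (edgeR's quasi-likelihood test), against 20.1% and 13.9% of all genes tested. At an unadjusted p under 0.05, 7 were higher and 0 lower, against 25.5% and 19.9% of all genes. By upper-quartile scaling 7 were higher, and by RLE scaling 6 were higher and 1 lower. At the thresholds of the study, which add an FC of at least 2, 4 of 10 were called against 15.5% of all genes. These 4 were *Hspa1a*, *Hspa1b*, *Hsph1* and *Hspe1*. The median log2 FC was 0.54, and 0.03 over all genes. Of the 6 higher genes, *Hsf1* was no longer past the test without libraries 5 and 7. Shares of all genes were not computed for that setting or for the other scalings. Between SP and BM Gr-1lo libraries, 2 were higher and 1 lower by the same test, against 4.88% and 0.697% of all genes. The 2 higher genes, *Hspa1a* and *Hspa1b*, were the ones called at the study's thresholds, against 4.06%, and the ones past the test without libraries 5 and 7. The median was -0.10, and -0.01 over all genes. By DESeq2, *Hsp90ab1* was also lower in SP Gr-1lo (log2 FC -0.37, adjusted p = 0.0186). *Hspa1a* and *Hspa1b* could take each other's reads, so the counts in both subsets hold 2 members that are not independent.

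For the interaction, the SP minus BM difference of Gr-1hi libraries minus that of Gr-1lo libraries, 5 of 10 passed with a positive difference and 0 with a negative one, against 10.3% and 6.08% of all genes. The counts were also 5 and 0 at an unadjusted p under 0.05, against 18.3% and 14% of all genes, and by DESeq2. *Hsph1* and *Hspe1* also exceeded an FC of 2, as 9.74% of all genes did at an adjusted p of at most 0.05. The other 3 were *Hsp90aa1*, *Hspd1* and *Hsf1*. The count was 2 to 5 when 1 library was left out, with the lowest count without library 8, and 3 with limma on quantile-normalized TPM.

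**Figure D3:**
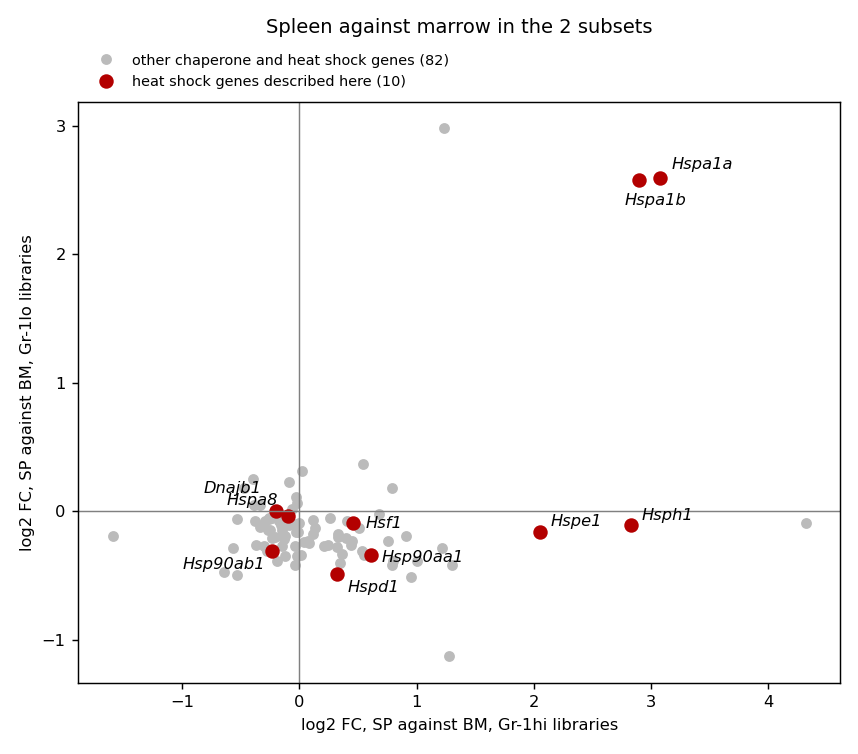
Log2 FC of SP against BM in Gr-1hi libraries (horizontal axis) and Gr-1lo libraries (vertical axis) for the 10 heat shock genes (red) and 82 other chaperone and heat shock genes tested (grey). *Hspa1a* and *Hspa1b* lie high on both axes, *Hsph1* and *Hspe1* on the horizontal axis alone, and the grey point near them on the vertical axis is *Hspa1l*.

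In both tissues 9 of the 10 genes were lower in Gr-1hi than in Gr-1lo libraries, and *Dnajb1* was higher. In BM 1 gene was higher and 9 lower by edgeR's quasi-likelihood test, against 34.5% and 41.2% of all genes. *Hsph1* had the largest difference, 31.4-fold lower in Gr-1hi (log2 FC -4.97 ± 0.28, adjusted p = 7.02e-07). *Hspe1* was 19.8-fold lower, and these 2 genes passed the study's thresholds for subsets (FC over 8, adjusted p under 0.01), against 16.7% of all genes. The log2 FC of the other 7 lower genes in BM lay between -2.56 for *Hspd1* and -1.45 for *Hsp90ab1*. With limma on quantile-normalized TPM, *Hspa1b* missed the threshold in BM (-0.75, adjusted p = 0.0612). In SP 1 gene was higher and 9 lower by the same test, against 33.6% and 37.8% of all genes, with log2 FCs from -2.10 for *Hspe1* to -1.23 for *Hsf1*. None of the 10 passed the study's thresholds in SP, against 7.37% of all genes, since no FC exceeded 8. In *Dnajb1* the log2 FC was 0.86 ± 0.18 in BM (adjusted p = 0.00202) and 0.67 ± 0.18 in SP (adjusted p = 0.00852), both by the quasi-likelihood test, and the SP call was lost without library 8 (0.60, adjusted p = 0.0583). The medians of the 10 genes were -1.86 in BM and -1.41 in SP, and those of all genes -0.17 and -0.09. RLE scaling moved the medians of all genes to -0.03 and 0.04, and the direction of each of the 10 genes was the same under TMM, RLE and upper-quartile scaling.

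Ratios within a library do not depend on how libraries are scaled. Per length of exon, *Hspa1a* and *Hspa1b* together were at 11.2% and 9.10% of *Hspa8* in SP Gr-1hi, 5.79% and 9.55% in SP Gr-1lo, 1.34% and 1.04% in BM Gr-1hi, and 1.61% and 0.976% in BM Gr-1lo. Each SP library lay above each BM library, and the BM subsets overlapped. *Hspe1* was at 52.1% and 43.1% of *Hspd1* in SP Gr-1hi, 56.7% and 64.9% in SP Gr-1lo, 49.2% and 47.4% in BM Gr-1lo, and 10.5% and 18.2% in BM Gr-1hi. *Hsp90aa1* was at 22.0% and 25.9% of *Hsp90ab1* in SP Gr-1hi, 24.8% and 22.5% in SP Gr-1lo, 25.6% and 22.8% in BM Gr-1lo, and 13.4% and 13.3% in BM Gr-1hi. In both of these ratios the 2 BM Gr-1hi libraries lay below the other 6. The other groups overlapped for *Hsp90aa1*, whereas for *Hspe1* both SP Gr-1lo libraries lay above them. *Dnajb1* was at 14.7% to 21.7% of *Hspa8* in the 4 Gr-1hi libraries and at 3.09% to 3.61% in the 4 Gr-1lo libraries. These ratios are given as values with no test.

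**Figure D4:**
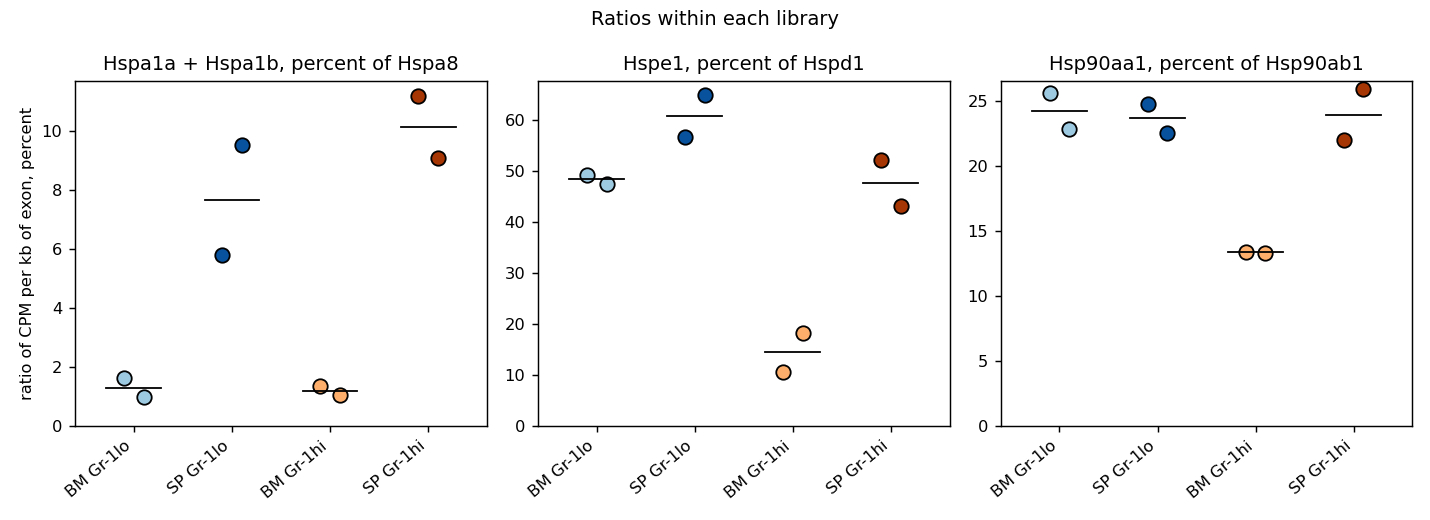
Ratios of CPM per kb of exon within each library, in percent, with a point per library and a line at the mean of a group. The *Hspa1* pair is above 5% of *Hspa8* in the 4 SP libraries and below 2% in the 4 BM libraries, and *Hspe1* against *Hspd1* and *Hsp90aa1* against *Hsp90ab1* are lowest in BM Gr-1hi.

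The rest of the chaperone system was read from 9 lists with 94 further genes, of which 82 passed the filter. In Gr-1hi libraries 15 were higher and 6 lower in SP by edgeR's quasi-likelihood test, with a median log2 FC of -0.03, against 20.1% and 13.9% of all genes and their median of 0.03. The split was 13 higher and 18 lower with RLE scaling and 19 and 3 with upper-quartile scaling. Fewer genes passed without libraries 5 and 7, and shares of all genes were not computed for these settings. In Gr-1lo libraries 1 was higher and 0 lower, against 4.88% and 0.697% of all genes, with a median of -0.19. At an unadjusted p under 0.05, 2 were higher and 24 lower, against 11.8% and 8.32%, and by DESeq2 1 was higher and 13 lower after adjustment. For the interaction, 15 passed with a positive and 2 with a negative difference, against 10.3% and 6.08%.

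The gene that passed in Gr-1lo was *Hspa1l* (ENSMUSG00000007033, chromosome 17, 34972703 to 34979285), a relative of *Hspa1a* that is best known from testis and starts 547 bases from the start of *Hspa1a* on the other strand. It was at 0.697 and 0.881 CPM in SP Gr-1lo, 0.0819 and 0.113 in BM Gr-1lo, 0.332 and 0.223 in SP Gr-1hi, and 0.150 and 0.0826 in BM Gr-1hi, with 2 to 76 counts per library. Its log2 FC in Gr-1lo was 2.98 ± 0.45 (adjusted p = 0.00657, quasi-likelihood test), and in Gr-1hi 1.23 ± 0.59 (adjusted p = 0.143). The call in Gr-1lo was lost without library 8, 11 or 12 (adjusted p = 0.0695, 0.0663 and 0.0548, same test) and held in the other 13 of 16 alternatives. By limma on log2(quantile-normalized TPM + 1) the value was 0.59.

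The counts of each list in Gr-1hi libraries stand against 20.1% of all genes higher and 13.9% lower. Mitochondrial chaperones and proteases had 3 of 8 genes higher in SP. *Clpp*, a protease subunit of the mitochondrial matrix, rose with a log2 FC of 1.30 and *Grpel2*, an exchange factor of mitochondrial HSP70, with 0.55. Among 8 HSP70 relatives tested, 1 was higher and 2 lower. *Hspa9*, the mitochondrial HSP70, had 19.1 and 17.1 CPM in SP Gr-1hi against 8.11 and 9.99 in BM Gr-1hi (log2 FC 1.0 ± 0.14, adjusted p = 0.00143, quasi-likelihood test). *Hspa12a*, a distant relative of the family, fell by 1.59 on the log2 scale. Of 18 J-domain genes, 2 were higher and 2 lower. *Dnaja4* had 54 counts in SP Gr-1hi and 2 in BM Gr-1hi, a ratio of the scaled counts of 21.3 with an exact 95% counting interval of 5.63 to 181, and *Dnajc5* fell by 0.39 on the log2 scale.

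Of 9 exchange factors and HSP70 inhibitors, 2 were higher in SP Gr-1hi, namely *Hspbp1* (log2 FC 0.76) and *St13* (0.51). Of 12 HSP90 cochaperones, 2 were higher and 2 lower, with *Fkbp4*, a partner of steroid receptors, at 0.95. In the cytosolic chaperonin TRiC and its partner prefoldin, 2 of 14 were higher, namely *Cct3* (0.79) and *Tcp1* (0.53). A list set up as other heat-inducible genes had 3 of 8 tested genes higher, from *Gadd45b* at 0.79 to *Hsp90b1* at 0.44. *Hsp90b1* encodes the HSP90 of the endoplasmic reticulum, and induction of these genes by heat was not tested. Neither the 3 heat shock factor genes and regulators tested nor the 2 small heat shock protein genes tested passed, and at an unadjusted p under 0.05 they numbered 1 and 0. Of 9 small heat shock protein genes, *Hspb3* and *Cryaa* had 0 counts in all 8 libraries, which allows at most 0.0348 to 0.124 TMM-scaled CPM per library, a limit that covers counting error only.

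Between Gr-1hi and Gr-1lo libraries, 51 of the 82 genes were lower and 16 higher in SP, and 51 lower and 17 higher in BM, by the quasi-likelihood test. The shares of all genes were 37.8% lower and 33.6% higher in SP, and 41.2% and 34.5% in BM. TRiC and prefoldin had 12 of 14 genes lower in each tissue, and mitochondrial chaperones and proteases 7 of 8. J-domain genes had 8 of 18 lower, with 5 higher in SP and 4 in BM.

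Immediate-early genes, which handling of cells can also induce, were measured beside the heat shock genes. Of 15 such genes, 6 were higher in SP Gr-1hi and 1 in SP Gr-1lo by the quasi-likelihood test, against 20.1% and 4.88% of all genes. At an unadjusted p under 0.05 they were 7 and 7, against 25.5% and 11.8%. Their summed level was 8388 and 14579 CPM in SP Gr-1hi, 7087 and 7923 in BM Gr-1hi, 3323 and 3466 in SP Gr-1lo, and 2257 and 2525 in BM Gr-1lo. Each SP library lay above the BM libraries of its subset. Between subsets the sum was higher in Gr-1hi, where the *Hspa1* pair was lower. *Zfp36*, *Fos* and *Junb* had the highest means, and in SP against BM Gr-1hi their log2 FCs were 0.38 (adjusted p = 0.211), 0.25 (adjusted p = 0.641) and 0.84 (adjusted p = 0.00878) by that test. Library 6 was the highest library for all 3 genes. Their part in the heat shock results was not tested, and time from dissection to lysis is not given in the sources used here.

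Markers of other cell types also moved with tissue, and their counts stand against the same shares of all genes. Of 10 B cell genes, 10 were higher in SP Gr-1hi and 9 in SP Gr-1lo, with sums of 360 to 537 CPM in SP Gr-1hi, 66.7 to 83.8 in SP Gr-1lo, 16.3 to 19.9 in BM Gr-1hi and 8.07 to 9.90 in BM Gr-1lo. Of 9 T cell genes, 8 and 9 were higher, with sums of 83.5 to 136, 29.4 to 42.3, 7.72 to 11.0 and, in both BM Gr-1lo libraries, 2.72 CPM. Of 7 plasma cell genes tested, 7 and 5 were higher, with sums of 288 to 392, 321 to 331, 101 to 102 and 231 to 256 CPM. Of 8 splenic macrophage genes, 8 and 6 were higher, with sums of 797 to 947, 97.5 to 99.5, 501 to 552 and 64.8 to 77.5 CPM.

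Of 8 dendritic cell genes, 4 were higher and 1 lower in SP Gr-1hi and 3 higher in SP Gr-1lo, with sums of 101 to 102, 19.4 to 24.3, 26.8 to 40.4 and 5.48 to 9.05 CPM. Of 7 erythroid genes tested, 6 and 7 were higher, with sums of 218 to 735, 167 to 233, 35.9 to 44.1 and 7.83 to 8.35 CPM. No list had a marker at 0 in all libraries. Of 10 neutrophil genes, 6 were lower in SP Gr-1hi and 5 higher in SP Gr-1lo, with sums of 78715 to 112170, 10690 to 11979, 153600 to 168256 and 4945 to 5018 CPM. Of 8 monocyte genes, 3 were higher and 1 lower in SP Gr-1hi and none passed in SP Gr-1lo, with sums of 1050 to 1173, 6546 to 6657, 1327 to 1754 and 9016 to 9909 CPM. Immature granulocyte genes had 4 of 7 lower in SP Gr-1hi and 1 lower in SP Gr-1lo, with sums of 104 to 175, 1425 to 2431, 228 to 265 and 3445 to 3520 CPM. Genes of dividing cells had 2 of 8 higher and 1 lower in SP Gr-1hi, and sums of 312 to 387, 1859 to 1865, 342 to 520 and 2224 to 2500 CPM. The part of these cells in the heat shock results was not tested, and in bulk RNA a change in the share of a cell type and a change in RNA per cell cannot be told apart.

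**Figure D5:**
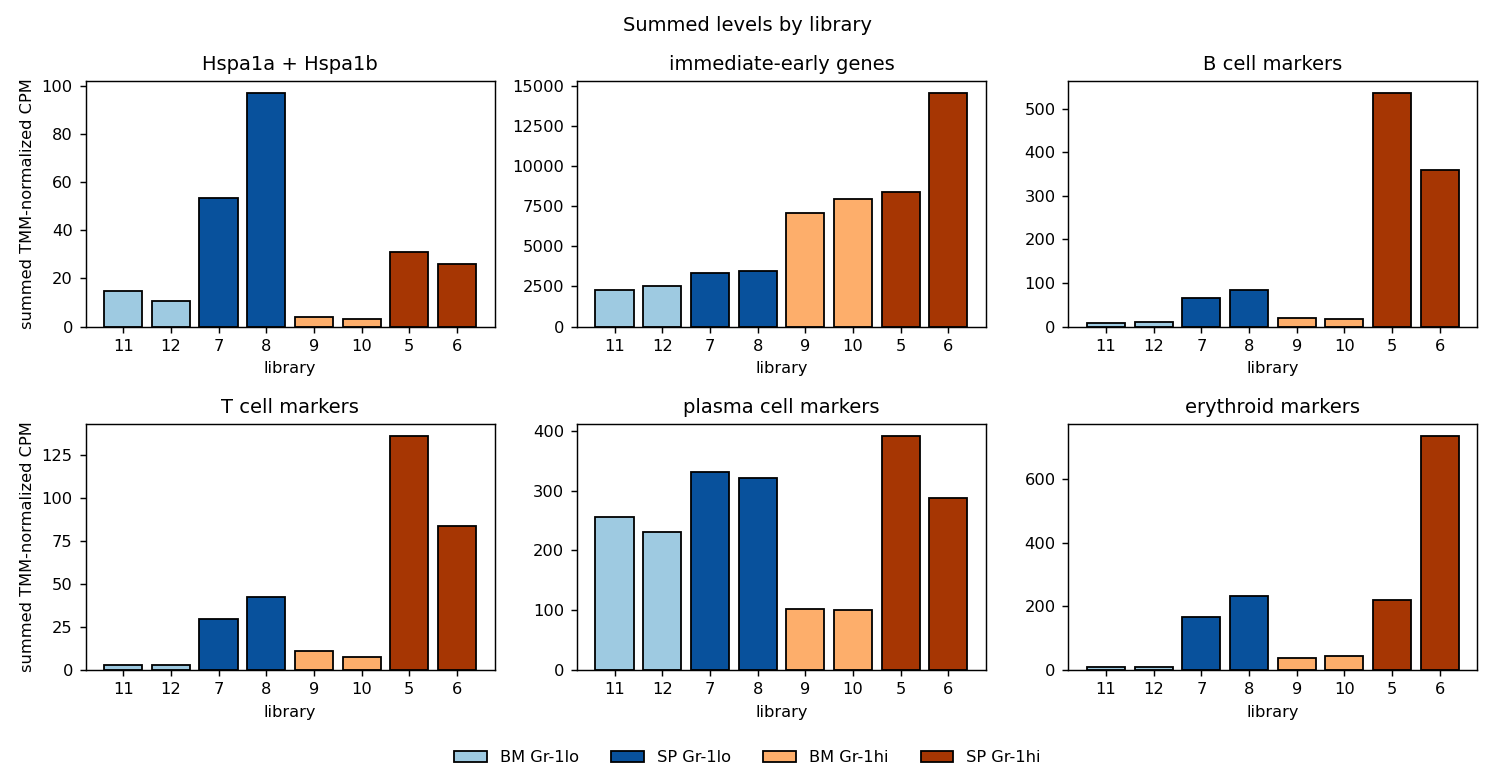
Summed TMM-normalized CPM in each library (bars, numbered by library) of *Hspa1a* and *Hspa1b*, of 15 immediate-early genes and of 4 lists of cell type markers. The *Hspa1* pair is highest in library 8 (97.2 CPM), immediate-early genes in library 6 (14579 CPM), B cell markers in library 5 (537 CPM) and erythroid markers in library 6 (735 CPM).

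Genes with the pattern most like that of 4 heat shock genes were read from Pearson's r of log2(CPM + 1) over the 8 libraries, among 8596 genes with a mean of at least 10 CPM. The 8 points are pairs from 4 groups, so r mostly reflects group means, and the values are descriptions. For *Hspa1a* they were *Hspa1b* (r = 0.999), *Cxcl9* (0.979), *Gpr132* (0.974), *Il2rg* (0.972) and *Cpt1a* (0.972). *Cxcl9*, an interferon-induced chemokine, was at 26.9 and 19.0 CPM in SP Gr-1hi, 47.7 and 116 in SP Gr-1lo, 0.897 and 1.28 in BM Gr-1hi, and 4.02 and 3.40 in BM Gr-1lo. Library 8 was the highest library for *Cxcl9* as for *Hspa1a*. For *Hsph1* they were *Eef1g*, *Dtx3* and *Gaa* (0.997 each), *Itm2c* and *Pdrg1* (0.996 each). For *Hsp90ab1* they were *Atp5b* (0.999), *Cenpa*, *Cdkn2c*, *Srsf3* and *Papss1* (0.998 each), and for *Hspd1* *Pds5b* (0.999), *Rrp1*, *Mbd3*, *Dnajc9* and *Serbp1* (0.998 each). Among the 10 genes themselves, r between *Hspa1a* and *Hsph1* was 0.68 and between *Hsph1* and *Hspe1* 0.99, while *Dnajb1* had a negative r with each of the other 9.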

How the data were processed

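RNA-seq counts per gene of 8 libraries (54188 genes) were used as the authors deposited them, without normalization. The authors checked reads with FastQC, filtered them with Sickle, aligned them to GRCm38 with STAR and counted them with featureCounts on GENCODE M24, from stranded paired 101-base reads. The deposited table is named as stranded, and the setting for reads with several matches is not given in the sources used here. The study's own test used quantile-normalized TPM in edgeR, whereas here counts were tested (R 4.3.3, edgeR 4.0.16). The filterByExpr function kept 17650 genes, which TMM scaled, and all 8 libraries entered 1 robust quasi-likelihood model of the 4 groups (residual df 4). The SE is the log2 FC divided by the square root of F.

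Each library was mapped to its group by its title. Counting noise was smaller than the difference between replicates in every group. The chi-square per df between replicates, near 1 for counting noise alone, was 66.7 in SP Gr-1hi and 18.9 to 21.3 in the other groups. P values rest on a spread between libraries that was estimated over all 4 groups, so they do not reflect the spread of SP Gr-1hi alone. In the fit of the 4 libraries compared, *Hsf1* in Gr-1hi was not past the threshold (log2 FC 0.48, adjusted p = 0.0792, quasi-likelihood test). Depth was 33453580 to 68316154 counts, and after TMM scaling 3 counts, the limit a count of 0 allows, were 0.0348 to 0.124 CPM. Exon lengths and coordinates came from GENCODE M21 on the same build, which lacks 241 of the genes, and start regions from RefSeq.

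The 10 genes, the chaperone, immediate-early and marker lists, and the tests were chosen with earlier results of these data known. Genes named besides the 10 follow a rule: the largest and smallest log2 FC past the test in each chaperone list and SP comparison, the 5 genes most like each of 4 heat shock genes, the 3 immediate-early genes of highest mean, and *Ly6g*, *Xist* and *Ddx3y* as checks of the labels. A gene that this rule gives is not reported here. *Hspb3* and *Cryaa* were named after their values were seen. *Csf1r*, also fixed as a check, had log2 FCs between Gr-1hi and Gr-1lo libraries of -1.56 in BM and -1.15 in SP. Between SP and BM Gr-1hi libraries the log2 FC was 1.05 for *Csf1r* (adjusted p = 0.00434) and -0.85 for *Ly6g* (adjusted p = 0.0562), by the quasi-likelihood test. Alternatives were RLE and upper-quartile scaling, no filter, DESeq2 1.42.0, limma 3.58.1 on log2(quantile-normalized TPM + 1), a fit of the 4 libraries compared, omission of each library in turn and of libraries 5 and 7, and *Hspa1a* and *Hspa1b* summed. The procedure was tested on simulated data in which the groups shared a mean profile apart from a small set of changed genes. That test does not cover subsets that differ in most genes, as these do.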

Additional observations from a re-analysis of the deposited data

Results flagged for a closer look

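For 5 heat shock genes the difference between SP and BM was not the same in the 2 subsets, by a test of the interaction of tissue and subset in the edgeR model (quasi-likelihood F test, Benjamini-Hochberg adjusted p, 2 libraries in each group). The difference in Gr-1hi exceeded that in Gr-1lo by 2.94 on the log2 scale for *Hsph1* (adjusted p = 0.00321), 2.21 for *Hspe1* (adjusted p = 0.00362), 0.95 for *Hsp90aa1* (adjusted p = 0.0118), 0.81 for *Hspd1* (adjusted p = 0.0157) and 0.56 for *Hsf1* (adjusted p = 0.0335). *Hspe1* passed in each of 15 alternatives. *Hsph1* missed the threshold in 1, on quantile-normalized TPM, and *Hsp90aa1* in 1, without library 8. *Hspd1* missed it in 4, without library 8, 9, 10 or 12, and *Hsf1* in 11, including the omission of any 1 library.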

How the results depend on the processing

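Of 790 log2 FCs of single heat shock genes under 16 alternatives, 732 kept their direction and side of the threshold, 34 lost and 8 gained a call, and 16 changed sign, none of them a call. The 732 include all 50 values with *Hspa1a* and *Hspa1b* summed, a setting that changed the counts of this pair only. They also include *Dnajb1* in Gr-1lo (-0.06 to 0.05), whose main value of 0.00 could not change sign by this rule. No paired analysis was possible because the groups share no replicate number and no label says which libraries come from 1 mouse. SP and BM libraries may still share mice, apart from library 5, whose *Xist* and *Ddx3y* counts differed from those of every BM library. With 1 library left out, a lone library is assumed to vary like the other groups, as it is without libraries 5 and 7. Heat shock genes past the test then numbered 4 to 8 for SP against BM in Gr-1hi, 2 to 3 in Gr-1lo, 9 to 10 for the subsets in SP, 10 in BM and 2 to 5 for the interaction. Other chaperone genes numbered 11 (without library 5) to 38 (without library 6), 0 (without library 8, 11 or 12) to 4, 61 to 70, 63 to 71, and 6 (without library 8, with 7 to 11 without library 7, 9, 11 or 12) to 25 (without library 6). In Gr-1hi, 21 other chaperone genes passed, against 32 with DESeq2, 13 in the fit of 4 libraries and 7 without libraries 5 and 7. In Gr-1lo 1 passed, against 5 with RLE scaling, 4 without a filter, 14 with DESeq2, 3 on quantile-normalized TPM, 10 in the fit of 4 libraries and 2 without libraries 5 and 7. For the interaction 17 passed, against 8 without libraries 5 and 7, and 5 heat shock genes, against 3 on quantile-normalized TPM. Shares of all genes were computed only with TMM scaling and all 8 libraries. The counts under alternatives thus cannot tell a change in these genes from a change in calls over all genes. The cause of these shifts was not tested. Changes of sign gave log2 values of 0.10 for *Dnajb1* in Gr-1hi without libraries 5 and 7, 0.05 for *Hsph1* in Gr-1lo without library 8 (leaving out 1 library, -0.27 to 0.05), and for *Hspa8* in Gr-1lo 0.01 without a filter, 0.04 without library 7, 0.08 without library 12 (range -0.14 to 0.08) and 0.02 without libraries 5 and 7. In the interaction they gave -0.28 for *Hspa1a* and -0.41 for *Hspa1b* on quantile-normalized TPM, -0.05 and -0.17 for *Hspa1b* without library 7 (range -0.05 to 0.84) and without libraries 5 and 7, -0.08, -0.05 and -0.04 for *Hsp90ab1* without library 6, 10 or 12 (range -0.08 to 0.20), 0.01 and 0.05 for *Hspa8* without library 8 or 11 (range -0.19 to 0.05), and 0.16 for *Dnajb1* without libraries 5 and 7. Depth limited *Hsph1* and *Hspe1* in BM Gr-1hi and *Hspa1l* in all libraries.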
